A study of Mus musculus with 17 samples.

Results

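The receptor chains for interleukin 12 and interleukin 18, with the transcription factor Stat4, were followed across 4 states of mouse CD8 T cells. Probes were taken by gene symbol from the platform annotation. The 5 genes Il18r1, Il18rap, Il12rb1, Il12rb2 and Stat4, of 19057 with a symbol, had 12 of the 45281 probes on an Illumina mouse bead array, and all 12 passed the filter on dim probes that 35237 probes passed. There were 3 probes for Il18r1, 2 for Il18rap, 2 for Il12rb1, 1 for Il12rb2 and 4 for Stat4.

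All cells came from OT-I mice, which carry a T cell receptor transgene against ovalbumin, on a C57Bl/6 background and aged 2 to 6 months. The LSEC-primed group (4 samples, numbered 4, 7, 14 and 15) was cocultured with liver sinusoidal endothelial cells, and the labels name samples 7, 14 and 15, but not sample 4, as Tpm, the partial memory T cells of the series title. The effector group (5 samples, numbered 6, 8, 10, 16 and 17) was activated by splenic dendritic cells in coculture, with spleen as the stated source of sample 8. Memory cells (3 samples, numbered 3, 5 and 9) came from spleens of mice infected 3 months earlier with ovalbumin-expressing Listeria monocytogenes, and naive cells (5 samples, numbered 1, 2, 11, 12 and 13) came from spleen without priming. LSEC-primed and effector cells were therefore primed in culture, while memory and naive cells came from the animal. The labels do not say whether samples of a group came from separate mice or cultures, so the spread behind each p-value is that between these samples and may be technical.

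Interleukin 12 binds a receptor made of Il12rb1, which is shared with the receptor of a related cytokine, and Il12rb2, the chain whose cytoplasmic tail recruits Stat4. The kinases Tyk2 and Jak2 sit on these chains and phosphorylate Stat4, which then drives interferon gamma. Interleukin 18 binds Il18r1 and needs the accessory chain Il18rap to signal through Myd88 to NF-kappa-B. In CD8 T cells the combination of these cytokines is known to elicit interferon gamma without antigen.

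The array of each sample was read as intensity, normalised across arrays and set on the log2 scale. A probe was called above background where it exceeded the mode of its array's intensities by 3 SD, with the SD taken from values under the mode. Between 26.4% and 33.3% of probes were above background on 16 arrays, and 15.3% on that of memory sample 5. Mean intensities were 96.7 and 140 on the arrays of memory samples 5 and 3, against 227 to 471 on the others. Correlations between arrays of a group ranged from 0.863 among memory samples to 0.989 among effector samples. The CD8 chain Cd8b1, the CD3 chains Cd3d, Cd3e and Cd3g, and Thy1 and Cd2 were above background on all 17 arrays. The Cd8a probe was above background on 1 LSEC-primed array alone. The number of arrays limits the precision of every value below.

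Il18r1 and Il18rap are neighbours on mouse chromosome 1 (GRCm38.p6, RefSeq), at chr1:40465552-40500854 and chr1:40515362-40551707 on the plus strand. They are 14507 bases apart with 0 annotated genes between them. Stat4 lies at chr1:51987106-52107189, Il12rb2 at chr6:67285986-67376293 and Il12rb1 at chr8:70808360-70823542. The sequences below are RefSeq promoter windows (GRCm38.p6) of 280 bases, 250 before and 30 from the start site, for the 3 chains with the largest changes. They are shown because Il18r1 and Il18rap were both higher in memory cells and Il12rb2 in effector cells. Capitals mark matches to TTCNNNGAA, the letters of a STAT binding motif, searched on both strands. Of the Il18r1 windows, the printed one is the only one with matches to this motif. It is not the window at the gene's annotated start. Nor does the start site of the Il12rb2 window, 67376188, match that gene's annotated start on the minus strand, 67376293. The windows are chr1:40465756-40466035 (plus strand) for Il18r1, chr1:40515112-40515391 (plus strand) for Il18rap and chr6:67376159-67376438 (minus strand) for Il12rb2.
Il18r1: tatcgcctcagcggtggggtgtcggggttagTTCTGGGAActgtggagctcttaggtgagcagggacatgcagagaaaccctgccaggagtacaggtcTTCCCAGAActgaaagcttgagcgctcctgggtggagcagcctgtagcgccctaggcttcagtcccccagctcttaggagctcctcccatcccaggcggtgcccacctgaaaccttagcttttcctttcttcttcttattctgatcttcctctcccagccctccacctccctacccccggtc
Il18rap: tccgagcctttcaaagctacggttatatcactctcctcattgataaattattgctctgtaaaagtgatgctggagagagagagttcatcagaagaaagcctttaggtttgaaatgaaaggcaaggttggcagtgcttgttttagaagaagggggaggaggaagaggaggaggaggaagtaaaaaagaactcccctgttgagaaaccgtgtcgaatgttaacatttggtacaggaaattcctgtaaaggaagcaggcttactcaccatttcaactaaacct
Il12rb2: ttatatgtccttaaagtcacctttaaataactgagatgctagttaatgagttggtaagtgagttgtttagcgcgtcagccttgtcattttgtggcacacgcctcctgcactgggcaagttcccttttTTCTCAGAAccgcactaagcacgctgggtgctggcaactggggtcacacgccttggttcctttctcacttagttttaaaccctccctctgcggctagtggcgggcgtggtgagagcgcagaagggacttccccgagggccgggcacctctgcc
This Il18r1 window held 2 matches, starting at positions -219 and -152 from the start site, and the Il12rb2 window held 1, at -123. The Il18rap window held 0, as did the windows of the other 2 Il18r1 start sites and both Stat4 windows. Of 32851 promoter windows of this length, 7.83% held this motif. A T-box motif, AGGTGTGA, is in 1.22% of windows and was found in 0 of the 7 windows of the 4 genes with an entry. A RUNX motif, TGTGGT, is in 15.6% of windows and was found once, at position 22 of another Il18r1 start site. A match describes letters and is not a measured binding site.

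The ligand-binding chain Il18r1 was highest in memory cells and lowest in LSEC-primed cells, with effector and naive cells between them. On its brightest probe, ILMN_1218525, the log2 levels were 8.18, 8.67, 7.01 and 7.87 in LSEC-primed cells and 9.86, 9.76, 9.92, 9.45 and 8.33 in effector cells. They were 12.12, 12.28 and 13.27 in memory cells and 9.61, 9.56, 9.81, 9.55 and 9.35 in naive cells. All 3 memory samples lay above every other sample, all 4 LSEC-primed samples lay below every naive sample, and LSEC-primed sample 7 overlapped effector sample 17.

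Il18r1 rose in memory cells over naive cells by 2.98 ± 0.37 (log2 change with SE, limma with Benjamini-Hochberg adjustment over all probes, adjusted p = 3.7e-05), a 7.87-fold difference. It fell in LSEC-primed cells relative to naive cells, with a log2 change of -1.65 ± 0.34 (limma, adjusted p = 0.00323), a 3.13-fold difference. LSEC-primed cells were also below effector cells, at -1.53 ± 0.34 (limma, adjusted p = 0.0048), and below memory cells, at -4.62 ± 0.39 (limma, adjusted p = 6.75e-07). Effector and naive cells were not separated, at -0.11 with a 95% interval of -0.79 to 0.56 (limma, adjusted p = 0.907). Under median scaling of the arrays in place of quantile normalisation, the calls of Il18r1 ended for memory over naive (1.24, limma adjusted p = 0.284), memory over effector (1.09, 0.292), LSEC-primed over naive (-1.63, 0.198) and LSEC-primed over effector (-1.78, 0.111). On the unnormalised scale, intensities of this probe were 1455, 503 and 8763 in memory samples 3, 5 and 9 and 719 to 1161 in naive samples, so memory sample 5 lay below the naive samples before normalisation.

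Another Il18r1 probe, ILMN_1255514, annotated to a cDNA record, was not above background on any LSEC-primed array. Its mean log2 level was 6.11 ± 0.07 in LSEC-primed cells (SD, n = 4), 7.03 ± 0.14 in effector cells (n = 5), 7.50 ± 0.50 in memory cells (n = 3, with 2 above background) and 6.57 ± 0.16 in naive cells (n = 5). LSEC-primed cells were at least 1.62-fold lower than effector cells (limma, adjusted p = 3e-04) and at least 2.24-fold lower than memory cells (limma, adjusted p = 3.1e-05). These bounds set the dim group at the lowest signal above background on each array, or at its own level where higher. Here and below, such bounds allow for background only, not for sampling error, and hold for quantile normalisation only. The same probe rose by 0.93 in memory over naive cells (limma, adjusted p = 0.000824) and, unlike the brighter probe, by 0.46 in effector over naive cells (limma, adjusted p = 0.023), so the probes disagree there. Under median scaling the calls ended in memory over naive (0.42, limma adjusted p = 0.436) and in LSEC-primed over memory cells (-0.87, 0.0713). The effector call ended under median scaling (0.68, adjusted p = 0.0896) and without any 1 of naive samples 1, 2 and 11 and effector samples 10 and 16 (0.42 to 0.43, limma adjusted p = 0.0542 to 0.0647). LSEC-primed over naive was not called on it (-0.45, limma adjusted p = 0.0576), but was with the stricter filter (adjusted p = 0.0386), array weights (0.0103) or only the 2 groups (0.00822). Memory over effector cells was called on it at 0.47 (limma, adjusted p = 0.0469), and this call ended without any 1 of memory samples 3 and 9 and effector samples 6, 8, 10 and 17 (0.28 to 0.50, limma adjusted p = 0.0515 to 0.243). It also ended under cyclic loess (0.22, limma adjusted p = 0.54), with no filter (adjusted p = 0.0558), with trend and robust eBayes (0.0634) and with only the 2 groups (0.154), and it reversed in direction under median scaling (-0.26, limma adjusted p = 0.61). The probe ILMN_1244895 was not above background on any of the 17 arrays and was not called in any of the 6 comparisons.

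The accessory chain Il18rap was above background on all 3 memory arrays and on 2 of the 14 others. On the probe ILMN_1221620 its log2 levels were 6.01, 6.00, 5.89 and 6.00 in LSEC-primed cells and 6.31, 6.24, 6.26, 6.26 and 6.11 in effector cells, none of them above background. They were 9.63, 9.77 and 8.97 in memory cells, and 6.35, 6.23, 6.30, 6.19 and 6.31 in naive cells, of which samples 1 and 13 were above background. With the background level set at 2 SD above the mode 11 arrays passed, and with 4 SD 3 did, against 5 here. After normalisation the 3 memory samples stood apart from the 14 others by more than the whole spread of those 14. On the unnormalised scale, intensities of this probe were 294.78, 136.48 and 549.45 in memory samples 3, 5 and 9. Before normalisation, memory sample 5 was thus close to effector sample 16, at 136.05.

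Il18rap rose by 3.18 ± 0.13 in memory over naive cells (limma, adjusted p = 6.7e-11), with 2 of 5 naive arrays above background. It was at least 8.94-fold higher in memory than in effector cells (limma, adjusted p = 2.66e-11) and at least 8.72-fold lower in LSEC-primed than in memory cells (limma, adjusted p = 4.71e-11). No call was made between LSEC-primed and naive cells (-0.30, limma adjusted p = 0.131) or between effector and naive cells (-0.040, limma adjusted p = 0.905), where levels were at or near background. The LSEC-primed over naive call was made with array weights (limma, adjusted p = 0.0442) and with only the 2 groups (0.0119). The size of the memory differences depends on the scaling, although each remained called. Under median scaling the log2 changes were 1.83 in memory over naive, 1.84 in memory over effector and -2.14 in LSEC-primed over memory cells (limma, adjusted p = 0.00126, 0.000279 and 0.000539), and under cyclic loess 2.04, 2.17 and -2.35 (limma, adjusted p = 4.39e-05, 5.28e-06 and 2.91e-05). The fold bounds above hold for quantile normalisation only. The other Il18rap probe, ILMN_2572235, was not above background on any array (on 7 with the level at 2 SD) and was not called. Without memory sample 9 it was called in memory over naive (0.49), memory over effector (0.50) and LSEC-primed over memory cells (-0.46; limma, adjusted p = 0.0255, 0.0143 and 0.0385).

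The 2 dim memory arrays bear on both chains. Without memory samples 3 and 5 together, a setting chosen after seeing the data in which memory sample 9 is assumed to vary like the other groups, Il18r1 changed by 3.69 (limma, adjusted p = 0.000476) and Il18rap by 2.70 (limma, adjusted p = 3.57e-10) in memory over naive cells. Some NK cell genes moved with the same comparison. Of 6 tested NK cell markers, 3 rose in memory over naive cells: Klrb1c by 2.66, Klra4 by 1.26 and Klre1 by 3.51 (limma, adjusted p = 4.1e-08, 0.0222 and 6.19e-07), where 6.49% of all named genes rose. The other 3 were not called. Fcer1g and Tyrobp averaged lower in memory than in naive cells (6.89 against 7.31, and 6.28 against 6.47). Klra8 averaged 6.14 against 5.97. The summed level of the 8 NK markers with a probe was 1653 to 3803 in memory samples, 663 to 1608 in LSEC-primed, 535 to 578 in effector and 552 to 834 in naive samples. The NK receptors Ncr1, Klra1 and Klra8 were not above background on any array. In whole samples, fewer cells of a type and less RNA per cell cannot be told apart, and the part of NK markers in the Il18 receptor result was not tested.

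**Figure D1:**
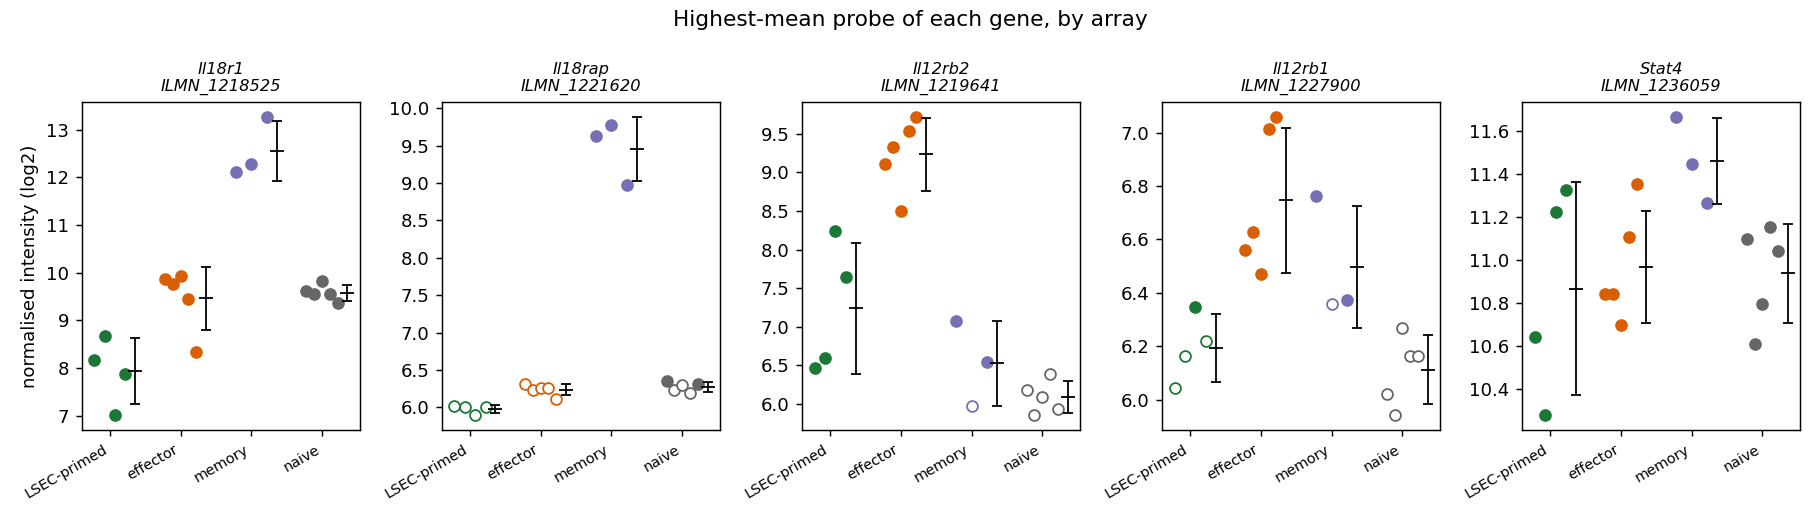
Normalised log2 intensity of the brightest probe of each gene, 1 point per array, with the mean and SD of each group beside its points; open points are not above background. Memory samples lie highest for Il18r1 (12.12 to 13.27) and Il18rap (8.97 to 9.77), and effector samples highest for Il12rb2 (8.50 to 9.72). Each panel has its own axis, which does not start at 0.

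The signalling chain Il12rb2 was highest in effector cells, intermediate in LSEC-primed cells, and at or near background in memory and naive cells. On its only probe, ILMN_1219641, log2 levels were 6.47, 6.59, 8.24 and 7.65 in LSEC-primed cells and 9.10, 9.32, 8.50, 9.54 and 9.72 in effector cells. They were 7.07, 5.97 and 6.54 in memory cells, with sample 5 not above background, and 6.18, 5.85, 6.09, 6.39 and 5.93 in naive cells, none above background. Every effector sample lay above every sample of the other groups. LSEC-primed samples 14 and 15 lay above all memory and naive samples, whereas LSEC-primed samples 4 and 7 lay within the range of memory samples.

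Il12rb2 was at least 7.40-fold higher in effector than in naive cells under quantile normalisation (limma, adjusted p = 7.79e-07). The fitted log2 change was 3.15, with a 95% interval of 2.49 to 3.81, and was 2.70 at its lowest in the other settings. LSEC-primed cells were higher than naive cells, with a log2 change of 1.15 and a 95% interval of 0.45 to 1.85 (limma, adjusted p = 0.0317). With only background allowed for, the difference was at least 1.85-fold in these samples. That bound does not allow for sampling error, and the fitted log2 change was 0.81 at its lowest with a single sample left out. LSEC-primed cells were below effector cells, with a log2 change of -2.00 ± 0.33 (limma, adjusted p = 0.000404). Memory cells were below effector cells, at -2.71 ± 0.36 (limma, adjusted p = 2.59e-05). LSEC-primed and memory cells were not separated (0.71, 95% interval -0.086 to 1.51, limma adjusted p = 0.278), nor were memory and naive cells (0.44, limma adjusted p = 0.516).

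The call of Il12rb2 in LSEC-primed over naive cells ended in several settings: with the authors' processed values (0.94, limma adjusted p = 0.0561), without background correction (0.91, 0.0536) and under median scaling (1.26, 0.151). It also ended without LSEC-primed sample 14 (0.81, limma adjusted p = 0.118) or 15 (1.01, limma adjusted p = 0.102), and without naive sample 1 (1.17, 0.0537), 2 (1.09, 0.0661), 11 (1.15, 0.061) or 13 (1.11, 0.066).

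The shared chain Il12rb1 was above background on every effector array and on no naive array, so its rise in effector cells has a lower bound only. On the probe ILMN_1227900 the log2 levels were 6.04, 6.16, 6.35 and 6.22 in LSEC-primed cells, with only sample 14 above background, and 6.56, 6.63, 6.47, 7.01 and 7.06 in effector cells. They were 6.76, 6.36 and 6.37 in memory cells, with sample 5 not above background, and 6.02, 5.94, 6.27, 6.16 and 6.16 in naive cells, none above background. Every effector sample lay above every LSEC-primed and every naive sample. Effector cells were at least 1.32-fold higher than naive cells (limma, adjusted p = 0.000722), and LSEC-primed cells were below effector cells at -0.55 ± 0.13 (limma, adjusted p = 0.00659). On the gene's other probe, LSEC-primed over effector cells was not called (-0.16, limma adjusted p = 0.266). The probe ILMN_2799452 was above background on 1 of 4 LSEC-primed, 4 of 5 effector, 1 of 3 memory and 0 of 5 naive arrays, and was at least 1.02-fold higher in effector than in naive cells (limma, adjusted p = 0.0319). That call ended without any 1 of naive samples 1, 2, 12 and 13 and effector samples 6, 10, 16 and 17 (0.20 to 0.25, limma adjusted p = 0.0507 to 0.0958) and with trend and robust eBayes (adjusted p = 0.0575), and with the background level at 4 SD the probe was above background on 2 arrays, against 6 here. On ILMN_1227900 memory over effector cells, not called at -0.25 (limma, adjusted p = 0.248), was called under median scaling (-0.64, 0.0242).

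Stat4, the transcription factor that the interleukin 12 receptor activates, was well above background in every sample and was not called in any of the 6 comparisons on its brightest probe. On ILMN_1236059 log2 levels were 10.64, 10.28, 11.22 and 11.32 in LSEC-primed cells and 10.84, 10.84, 10.69, 11.11 and 11.35 in effector cells. They were 11.67, 11.45 and 11.26 in memory cells and 11.10, 10.61, 10.80, 11.15 and 11.04 in naive cells. Memory samples lay above all naive samples, and the other groups overlapped.

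Intervals of these Stat4 changes hold for this probe under quantile normalisation, and do not bound changes on other probes or under other scaling. The 95% interval was -0.49 to 0.34 for LSEC-primed over naive cells, -0.36 to 0.42 for effector over naive cells and 0.070 to 0.97 for memory over naive cells (limma, adjusted p = 0.929, 0.966 and 0.146). The comparisons of memory cells with LSEC-primed, naive and effector cells, 3 of the 6, had an unadjusted limma p under 0.05. Median scaling turned the sign of the memory differences: memory over effector cells, 0.49 here, became -1.58 (limma, adjusted p = 0.0447) and memory over naive cells, 0.52 here, became -1.20 (limma, adjusted p = 0.182). LSEC-primed over memory cells was called without LSEC-primed sample 15 (-0.75, limma adjusted p = 0.0432). Transcript level does not measure phosphorylated Stat4.

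The other Stat4 probes did not follow the brightest one in all groups. ILMN_1215254, annotated to a cDNA record, averaged 6.56 ± 0.10 in LSEC-primed (n = 4), 6.35 ± 0.09 in effector (n = 5), 7.07 ± 0.57 in memory (n = 3) and 7.08 ± 0.29 in naive cells (SD, n = 5). It fell in effector relative to naive cells, at -0.73 ± 0.17 (limma, adjusted p = 0.00338), and was higher in memory than in effector cells, at 0.72 ± 0.19 (limma, adjusted p = 0.0116). The call between memory and effector cells ended without memory sample 3 (0.49, limma adjusted p = 0.0834) or 9 (0.63, 0.052) and under median scaling (0.31, 0.412). ILMN_2614970 was above background on all 17 arrays, with LSEC-primed sample 7 (7.26) and naive sample 2 (7.80) below the others, and was not called. LSEC-primed over naive cells, not called on ILMN_1215254, was called under cyclic loess (-0.54, limma adjusted p = 0.0174), with the stricter filter (-0.52, 0.0412), with array weights (-0.51, 0.0191), with only the 2 groups (-0.52, 0.0336) and without naive sample 11 (-0.61, 0.0397). LSEC-primed over memory cells was called on it with array weights (-0.72, 0.0262) and without memory sample 5 (-0.83, 0.00267). ILMN_2792599 was above background on 3 effector and 2 memory arrays and was not called. Those 5 arrays became 8 with the background level at 2 SD and 1 at 4 SD, and without memory sample 3 the probe was called in LSEC-primed over memory (-0.90, limma adjusted p = 0.0143), memory over naive (0.79, 0.025) and memory over effector cells (0.69, 0.0302).

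**Figure D2:**
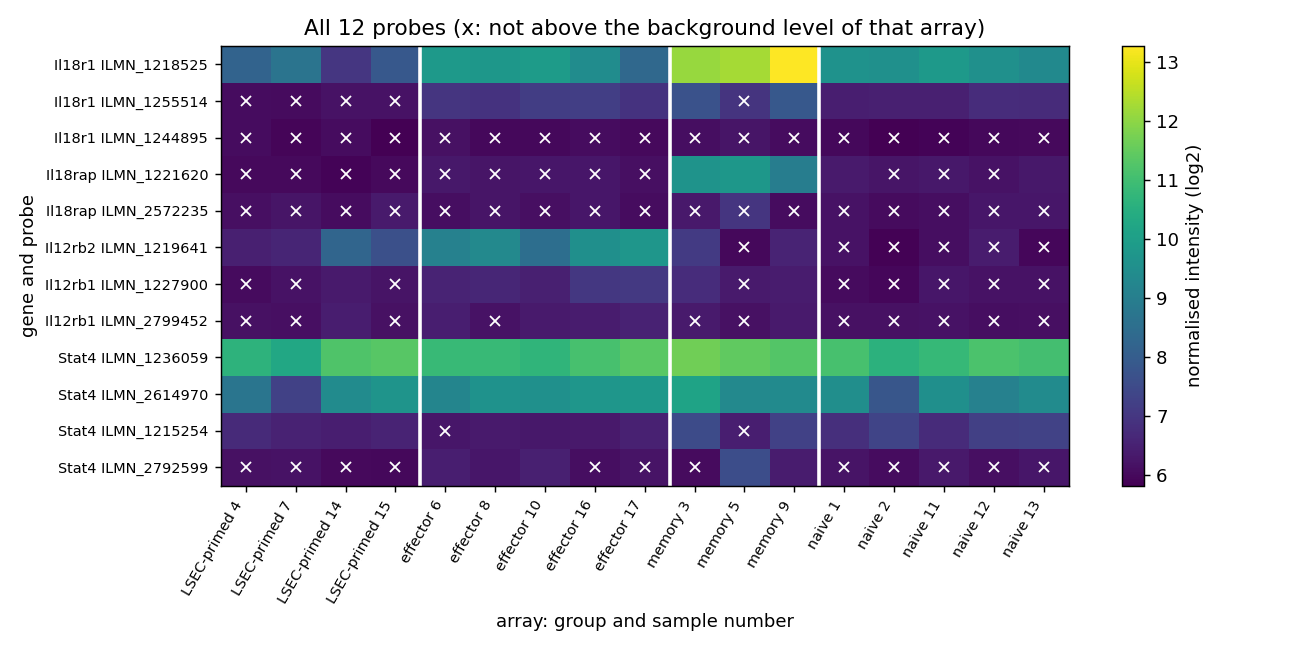
Normalised log2 intensity of all 12 probes (rows) on all 17 arrays (columns, by group and sample number), as colour; a cross marks a value not above the background level of its array. Colours compare arrays along a row and not probes with each other. Il18rap ILMN_1221620 is above background on 3 of 3 memory arrays and 0 of 4 LSEC-primed arrays.

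Counts of called probes are read against the array as a whole. In LSEC-primed over naive cells 2 of 12 probes were called, 1 higher and 1 lower, where 11.1% of all probes tested were called in either direction. In LSEC-primed over effector cells 4 of 12 were called, all lower (background 12.5%), and in LSEC-primed over memory cells 3 of 12, all lower (background 11.0%). In effector over naive cells 5 of 12 were called, 4 higher and 1 lower (background 20.9%). In memory over naive cells 3 of 12 were called, all higher (background 10.4%), and in memory over effector cells 5 of 12, 4 higher and 1 lower (background 20.2%). The comparisons share groups and are not independent. Under median scaling 0 of 12 probes were called in LSEC-primed over naive cells and 1 of 12 in memory over naive cells.

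**Figure D3:**
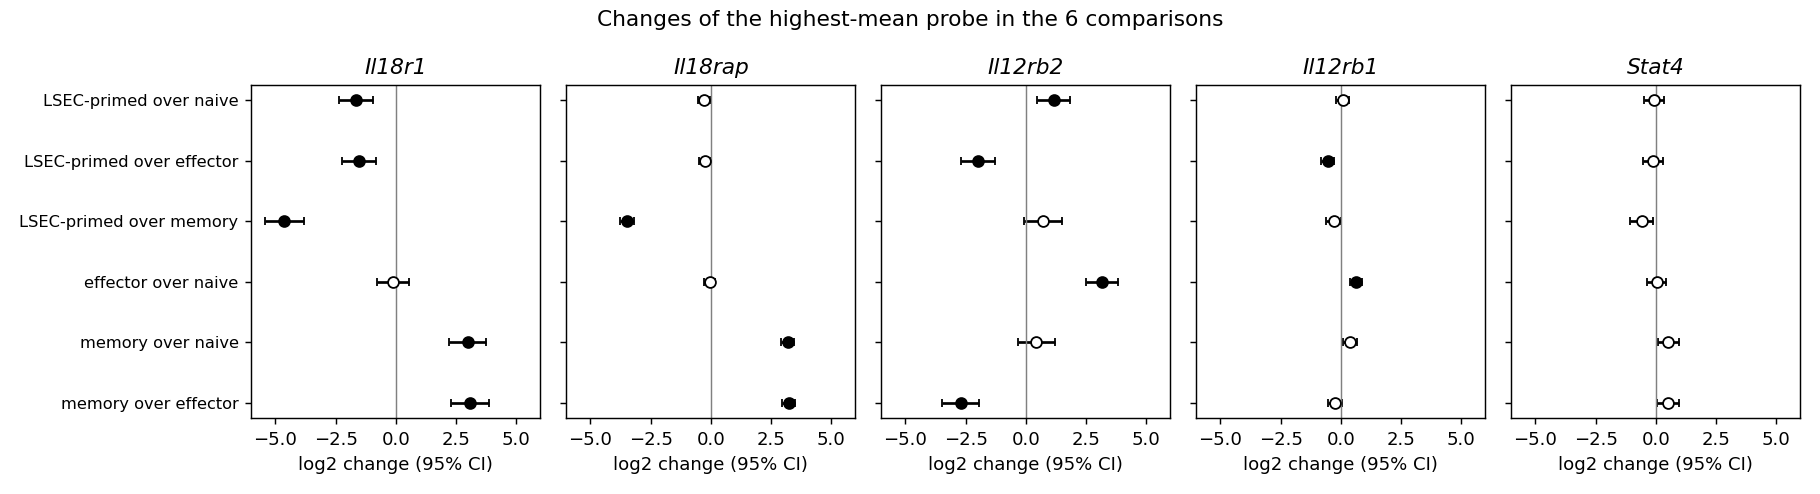
Log2 change of the brightest probe of each gene in the 6 comparisons, with the 95% interval; filled points have an adjusted p under 0.05 in limma. Il18r1 and Il18rap are filled on the right of 0 in memory over naive (2.98 and 3.18), and Il12rb2 in effector over naive (3.15), where naive arrays are at background and the fitted change is not a bound.

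The chains of a receptor were set against each other within arrays. The log2 difference of Il12rb2 minus Il12rb1 was 0.43, 0.43, 1.90 and 1.43 in LSEC-primed cells, and 2.54, 2.70, 2.03, 2.53 and 2.66 in effector cells. It was 0.31, -0.39 and 0.17 in memory cells and 0.16, -0.087, -0.18, 0.22 and -0.23 in naive cells. Every LSEC-primed and effector value lay above every naive value. The shift was 1.07 in LSEC-primed over naive cells (exact permutation test, two-sided, p = 0.01587, the smallest these groups allow, adjusted p = 0.03175 over 6 tests) and 2.51 in effector over naive cells (exact permutation test, p = 0.007937, also the smallest, adjusted p = 0.03175). In memory over naive cells it was 0.053 (exact permutation test, adjusted p = 0.9127). Both chains were at background on all 5 naive arrays, and Il12rb1 on 3 of 4 LSEC-primed arrays. These shifts therefore follow the Il12rb2 signal, and unequal change of the chains cannot be read from them or from their p-values.

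The difference of Il18r1 minus Il18rap averaged 1.95 ± 0.65 in LSEC-primed (n = 4), 3.23 ± 0.59 in effector (n = 5), 3.10 ± 1.04 in memory (n = 3) and 3.30 ± 0.17 in naive cells (SD, n = 5). It shifted by -1.35 in LSEC-primed over naive cells (exact permutation test, two-sided, p = 0.01587, adjusted p = 0.03175), where Il18rap was not above background on any LSEC-primed array, so unequal change cannot be read from this shift either. The shift was -0.21 in memory over naive cells and -0.075 in effector over naive cells (exact permutation test, adjusted p = 0.9127 for both). Il18rap was above background on 0 of 5 effector and 2 of 5 naive arrays, so equal change of the chains cannot be read from these shifts. The memory values were 2.49, 2.50 and 4.29, on either side of all naive values.

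**Figure D4:**
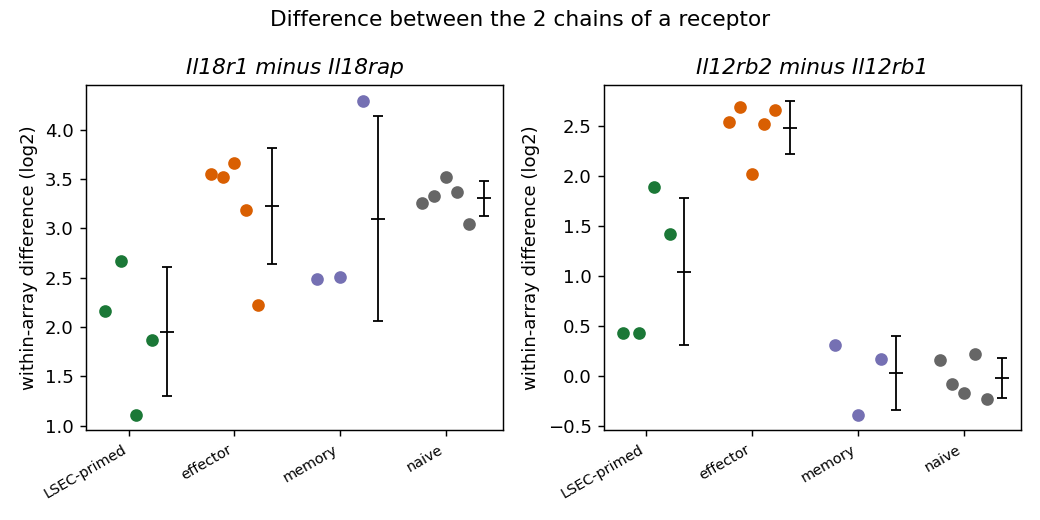
Within-array log2 difference between the chains of a receptor, 1 point per array, with the mean and SD of each group. The Il12rb2 minus Il12rb1 difference lies between 2.03 and 2.70 in effector samples and between -0.23 and 0.22 in naive samples. Axes do not start at 0.

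Other genes of the pathway were read from a list of 65, of which 59 were tested. In memory over naive cells 9 rose and 9 fell, where 6.49% of all 16462 named genes rose and 6.71% fell, and the list's median log2 change was -0.059, against 0.010 for all named genes. In LSEC-primed over naive cells 3 rose and 10 fell, where 9.76% of named genes rose and 5.58% fell (median -0.055 for the list, 0.012 for all). In effector over naive cells 12 rose and 17 fell, where 14.1% rose and 12.1% fell (median -0.0075 for the list, -0.0037 for all).

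In LSEC-primed over effector cells 10 rose and 10 fell, where 9.22% and 8.03% of named genes did (median -0.038 for the list, 0.011 for all). In LSEC-primed over memory cells 6 rose and 9 fell, where 9.25% and 5.63% did (median -0.036 for the list, 0.012 for all). In memory over effector cells 12 rose and 5 fell, where 11.7% and 13.9% did (median -0.021 for the list, 0.011 for all). Under median scaling the list gave 2 higher and 18 lower in memory over naive, 1 higher and 23 lower in memory over effector and 14 higher and 1 lower in LSEC-primed over memory cells, against the counts above. It gave 1 higher and 4 lower in LSEC-primed over naive, 1 higher and 9 lower in LSEC-primed over effector and 10 higher and 9 lower in effector over naive cells. The list's counts thus depend on the scaling in every comparison. In LSEC-primed over memory cells the 6 higher became 1 under cyclic loess and 2 with array weights, with only the 2 groups or without memory samples 3 and 5 together. In memory over naive cells the 9 lower became 5 with only the 2 groups and 4 without those samples, and in memory over effector cells the 5 lower became 3 with array weights or without those samples.

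Ligand transcripts were low. Il12a, a subunit of interleukin 12, was not above background on any array. Il18, at 6.67 ± 0.29 in LSEC-primed, 6.81 ± 0.14 in effector, 6.61 ± 0.50 in memory and 6.42 ± 0.35 in naive cells (SD), and its soluble inhibitor Il18bp were not called in any comparison. Ebi3, a subunit of interleukin 27, exceeded its naive level at least 1.21-fold in LSEC-primed and at least 3.05-fold in effector cells (limma, adjusted p = 0.00643 and 4.68e-09). It was at least 2.26-fold lower in memory than in effector cells (limma, adjusted p = 2.18e-08). Under median scaling the call in LSEC-primed over naive cells ended (0.62, limma adjusted p = 0.126).

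Among receptors related to these, Il6st, the shared signalling chain of the interleukin 6 family, fell in memory over naive cells, with a log2 change of -2.28 (limma, adjusted p = 2.01e-06). Il6st also fell in effector over naive cells (-2.18, limma adjusted p = 1.6e-07). It fell less in LSEC-primed over naive cells (-0.94, limma adjusted p = 0.00397), a call that ended under median scaling (-0.87, 0.0693). Its level in LSEC-primed cells exceeded that in effector cells by 1.23 and that in memory cells by 1.34 (limma, adjusted p = 0.000326 and 0.000798). Il27ra, a receptor chain for interleukin 27, fell in effector over naive cells (-1.675, limma adjusted p = 3.87e-08). It exceeded its effector level in LSEC-primed cells by 1.57 (limma, adjusted p = 5.62e-07), a call that ended under median scaling (1.44, limma adjusted p = 0.0905). In memory cells it exceeded that level by 1.75 (limma, adjusted p = 1.52e-07), which reversed under median scaling (-0.24, limma adjusted p = 0.81). Il1r2, a decoy receptor for interleukin 1, was at least 1.50-fold lower in memory than in effector cells (limma, adjusted p = 9.31e-06). It was also higher in effector than in naive cells and lower in LSEC-primed than in effector cells (limma, adjusted p = 5.11e-05 and 6.26e-06).

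Of the kinases on the interleukin 12 receptor, Tyk2 had log2 levels of 10.79, 10.86 and 10.47 in memory cells and 9.53, 9.26, 9.29, 9.14 and 9.39 in naive cells, without overlap. It rose by 1.39 ± 0.13 in memory over naive cells and by 1.33 ± 0.13 over effector cells (limma, adjusted p = 1.17e-06 and 5.78e-07), and was lower in LSEC-primed than in memory cells, at -1.05 (limma, adjusted p = 4.67e-05). All 3 Tyk2 differences reversed under median scaling, to -0.26, -0.63 and 0.74 (limma, adjusted p = 0.834, 0.406 and 0.405). Under quantile normalisation, but not median scaling, Jak2 changed in the opposite direction to Tyk2 in memory over naive cells. Its levels were 9.45, 9.54 and 9.44 in memory cells and 10.38, 9.95, 10.42, 10.53 and 10.27 in naive cells. It changed by -0.84 in memory over naive cells (limma, adjusted p = 0.00257) and by -0.47 in effector over naive cells (limma, adjusted p = 0.0238), and was 0.64 higher in LSEC-primed than in memory cells (limma, adjusted p = 0.0214). The Jak2 call in memory over naive cells ended without memory samples 3 and 5 together (-0.88, limma adjusted p = 0.069). Its call in effector over naive cells ended under median scaling (-0.21, limma adjusted p = 0.838) and without any 1 of naive samples 1, 11 and 12 and effector samples 6 and 10 (-0.45 to -0.41). That in LSEC-primed over memory cells ended under cyclic loess (0.50, limma adjusted p = 0.143), with only the 2 groups (0.64, 0.159), without memory samples 3 and 5 together (0.68, 0.186) and without any 1 of memory sample 3 and LSEC-primed samples 14 and 15 (0.50 to 0.63).

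Myd88, the adaptor of the interleukin 18 receptor, had levels of 9.99, 9.73, 9.74, 9.82 and 9.28 in effector cells, all below the naive range of 10.47 to 10.59. It changed by -0.79 in effector over naive cells (limma, adjusted p = 1.74e-05) and exceeded its effector level by 0.87 in LSEC-primed cells (limma, adjusted p = 2.73e-05) and by 0.70 in memory cells (limma, adjusted p = 0.000317). Under median scaling none of these 3 Myd88 calls held (-0.53, 0.74 and, reversed, -1.21; limma adjusted p = 0.515, 0.45 and 0.0846). Of 14 tested genes of the Myd88 branch, 6 fell in effector over naive cells (12.1% of all named genes did) and 4 fell in LSEC-primed over naive cells (5.58% did), with the rest not called. Examples are Nfkbiz, an NF-kappa-B cofactor, at -2.34 in effector over naive cells, and Tnfaip3, a brake on NF-kappa-B, at -2.67 in LSEC-primed over naive cells (limma, adjusted p = 9.55e-06 and 0.000222). Relb, an NF-kappa-B subunit, was 0.77 higher in LSEC-primed than in memory cells (limma, adjusted p = 0.0232), a call that ended under cyclic loess (0.42, limma adjusted p = 0.308), with array weights (0.63, 0.0959), with only the 2 groups (0.77, 0.194), without memory samples 3 and 5 together (0.72, 0.109) and without any 1 of memory sample 5 and LSEC-primed samples 14 and 15 (0.50 to 0.70).

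Among feedback genes, Socs3, a cytokine signalling inhibitor, fell in each of the primed or memory groups relative to naive cells, with log2 changes of -2.43 in LSEC-primed, -2.32 in effector and -2.24 in memory cells (limma, adjusted p = 8.53e-07, 1.6e-07 and 4.94e-06). The phosphatase Dusp1 fell too, with log2 changes of -2.57, -3.30 and -1.94 in the same comparisons (limma, adjusted p = 0.000625, 1.03e-05 and 0.013), the last of which missed the threshold without memory sample 9 (-1.13, limma adjusted p = 0.052) and with only the 2 groups (-1.94, 0.072). These comparisons share the naive samples. Cish, a target and inhibitor of STAT5 signalling, rose by 2.68 in effector over naive cells (limma, adjusted p = 6.67e-06) and was lower in LSEC-primed than in effector cells, at -2.76 (limma, adjusted p = 2.25e-05). It also rose in memory over naive cells (2.13, limma adjusted p = 0.000917), a call that ended under median scaling (0.965, 0.428).

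Tbx21, which encodes T-bet and is known to act on Il12rb2 and Ifng in T cells, had log2 levels of 10.20, 10.10 and 10.09 in memory cells. Its levels were 7.10, 7.68, 7.54 and 7.41 in LSEC-primed cells, 7.06, 7.21, 7.41, 7.61 and 6.83 in effector cells and 6.32, 6.44, 6.40, 6.52 and 6.65 in naive cells. All LSEC-primed, effector and memory values lay above every naive value. Tbx21 rose by 3.66 ± 0.15 in memory over naive cells (limma, adjusted p = 8.07e-11), by 0.97 in LSEC-primed over naive cells (limma, adjusted p = 0.000131) and by 0.76 in effector over naive cells (limma, adjusted p = 0.000297). It was 2.90 higher in memory than in effector cells (limma, adjusted p = 7.15e-10) and lower in LSEC-primed than in memory cells, at -2.69 (limma, adjusted p = 1.24e-08). Under median scaling the Tbx21 call in memory over naive cells held, while the others ended (LSEC-primed over naive 1.08, effector over naive 1.03, memory over effector 1.21, LSEC-primed over memory -1.15; limma adjusted p = 0.257, 0.13, 0.0876 and 0.156).

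Eomes, a related T-box factor, was not above background on any effector array, and was at least 1.90-fold lower in effector than in naive cells (limma, adjusted p = 0.000649). It was at least 4.12-fold higher in memory than in effector cells under quantile normalisation (limma, adjusted p = 3.43e-06). The fitted log2 change there was 2.28, and was 1.22 at its lowest in the other settings. Eomes rose by 1.12 in memory over naive cells (limma, adjusted p = 0.00739). This last call ended under median scaling (0.089, limma adjusted p = 0.915), under cyclic loess (0.44, 0.531), with only the 2 groups (1.12, 0.0665), without memory sample 5 (0.96, 0.0515) and without memory samples 3 and 5 together (0.65, 0.458). Irf1, an interferon-induced factor, was 0.77 higher in LSEC-primed than in naive cells (limma, adjusted p = 0.0414) and 1.01 higher than in effector cells (limma, adjusted p = 0.00652). Its call over naive cells ended without any 1 of the 4 LSEC-primed or 5 naive samples (0.68 to 0.83, limma adjusted p = 0.0516 to 0.107), under median scaling (0.87, 0.502), under cyclic loess (0.69, 0.0582) and with no filter (0.77, 0.0514), and its call over effector cells under median scaling (0.81, 0.47). Irf4, induced by T cell receptor signals, was 1.14 higher in LSEC-primed than in memory cells (limma, adjusted p = 0.0114; without memory sample 9, 0.94 and 0.0509; under cyclic loess, 0.59 and 0.565; with array weights, 1.11 and 0.0651) and lower in memory than in effector cells, at -2.69 (limma, adjusted p = 8.53e-07).

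Ifng, the cytokine that interleukin 12 and interleukin 18 elicit, had log2 levels of 6.28, 6.57, 5.82 and 6.03 in LSEC-primed cells, with only sample 7 above background, and 7.95, 8.02, 7.92, 7.70 and 7.57 in effector cells. They were 9.96, 10.79 and 9.71 in memory cells and 6.65, 6.88, 6.34, 6.45 and 6.24 in naive cells. Memory samples were highest and effector samples next, with no overlap, while LSEC-primed and naive samples overlapped. Ifng rose by 3.64 ± 0.22 in memory over naive cells (limma, adjusted p = 7.59e-09) and by 1.32 ± 0.19 in effector over naive cells (limma, adjusted p = 4.01e-05). LSEC-primed cells were lower than memory cells, at -3.98, and lower than effector cells, at -1.66 (limma, adjusted p = 9.13e-09 and 1.67e-05), with 1 of 4 LSEC-primed arrays above background. Memory exceeded effector cells by 2.32 (limma, adjusted p = 4.89e-07), a call that ended under median scaling (0.51, limma adjusted p = 0.363).

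The cytotoxic genes Fasl and Prf1 were lower in LSEC-primed than in effector cells. Fasl, the ligand of the death receptor Fas, rose by 2.54 in memory and 1.95 in effector over naive cells (limma, adjusted p = 3.74e-07 and 3.64e-07), and was lower in LSEC-primed than in effector cells, at -1.89 (limma, adjusted p = 2.89e-06). Prf1, which encodes perforin, was lower in LSEC-primed than in effector cells, at -2.11, and than in memory cells, at -3.25 (limma, adjusted p = 0.000767 and 7.38e-05). Under median scaling the calls of Fasl in memory over naive cells (1.37, limma adjusted p = 0.116) and of Prf1 in LSEC-primed over memory cells (-1.40, 0.209) ended.

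**Figure D5:**
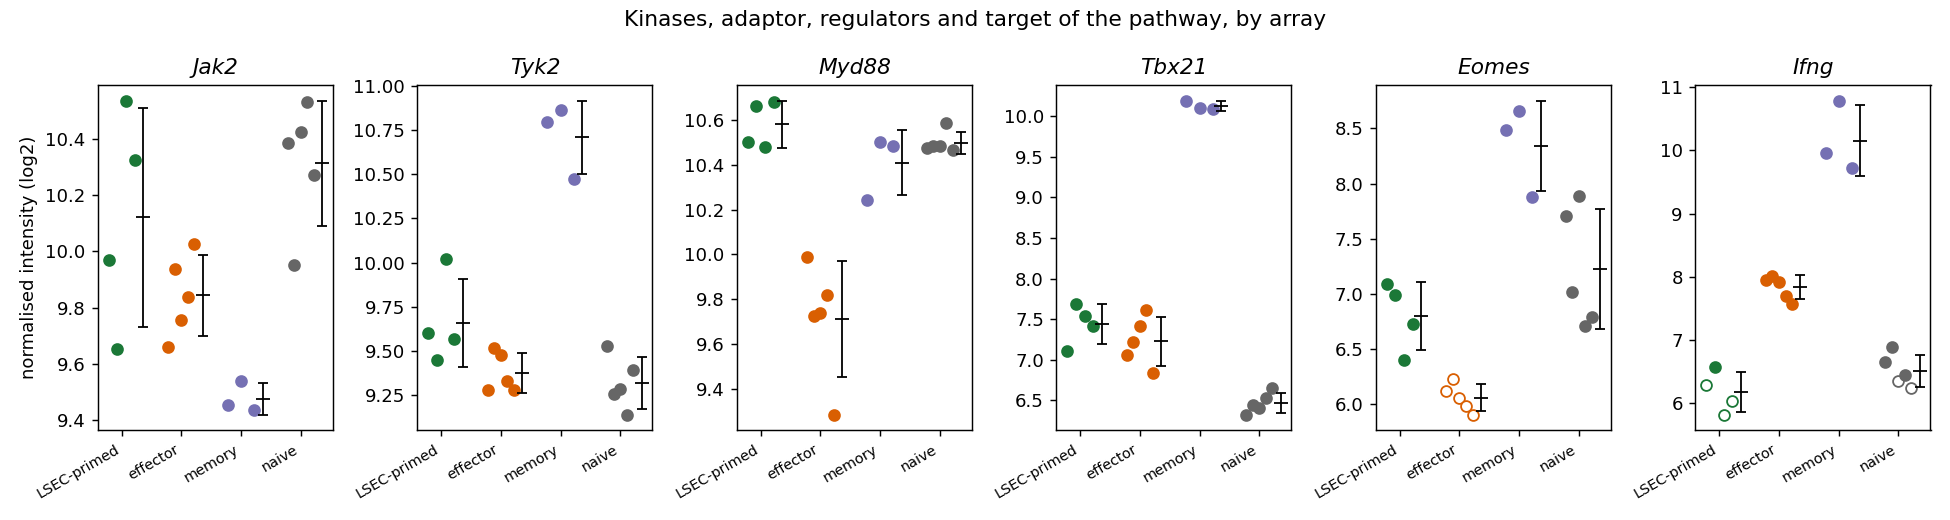
Normalised log2 intensity of the receptor kinases Jak2 and Tyk2, the adaptor Myd88, the T-box factors Tbx21 and Eomes, and Ifng, 1 point per array with group mean and SD; open points are not above background. Memory samples are the highest for Tyk2 (10.47 to 10.86), Tbx21 (10.09 to 10.20) and Ifng (9.71 to 10.79) and the lowest for Jak2 (9.44 to 9.54); the Tyk2 order of memory and naive means reverses under median scaling. Axes do not start at 0.

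Markers of liver sinusoidal endothelium stood beside the LSEC-primed results. Of 16 tested, 8 rose in LSEC-primed over naive cells, where 9.76% of all named genes rose, and the rest were not called. Of these 8, Stab1, Egfl7 and Igfbp7 also rose in effector over naive cells, by 2.60, 2.19 and 1.78 (limma, adjusted p = 4.28e-10, 1.02e-06 and 0.0065). Igfbp7 was also called higher in memory than in naive cells (limma, adjusted p = 0.0345). In LSEC-primed over effector cells 8 of the 16 rose, where 9.22% of named genes did. Stab1 alone fell there, at -1.49 (limma, adjusted p = 1.5e-06), where 8.03% of named genes fell. The summed level of the 16 was 4945 to 7501 in LSEC-primed, 1997 to 2433 in effector, 1069 to 2363 in memory and 1185 to 1539 in naive samples. Macrophage markers summed to 662 to 3788 in LSEC-primed samples and 670 to 1602 in naive samples. Erythroid markers summed to 296 to 327 in LSEC-primed and 293 to 320 in effector samples, against 5271 to 13110 in memory and 5364 to 30480 in naive samples. The part of these markers in the receptor results was not tested.

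Genes with a like pattern over the 17 arrays were named by the smallest root mean square difference of centred log2 values. For Il18r1 these were Sytl2 (0.528), Aqp9 (0.597) and Phf11a (0.675), and for Il18rap they were Nhsl2 (0.262), Aqp9 (0.341) and 6330509M05Rik (0.355). Aqp9 is thus on the lists of both interleukin 18 receptor chains. For Il12rb2 they were Tk1, which encodes a thymidine kinase used in DNA synthesis (0.322), and the glycolytic genes Pgam1 (0.36) and Aldoa (0.375). For Il12rb1 they were Rad51d (0.15), Nfe2l1 (0.166) and Galm (0.167), and for Stat4 they were Abcf3 (0.156), Cyb5r4 (0.162) and Selplg (0.168). Small values for Il12rb1 and Stat4 go with small spreads of these probes over the arrays.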

How the data were processed

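RNA of 17 samples in 4 groups was extracted with QIAzol and an miRNeasy kit and labelled as biotin cRNA, per the labels' protocols. Deposited were raw intensity per probe, on a linear scale and not normalised per the file headers, and the authors' processed intensity, which the values show to be quantile normalised. The scanner is not given in the sources used here. Of the columns, 3 with no label were not used here.

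With limma 3.58.1 in R 4.3.3, raw intensities were background corrected by normexp (offset 50), quantile normalised and turned to log2. Probes above the array median on at least 3 arrays were kept (35237 of 45281), the fallback planned for files without detection p-values. In the annotation of 2016, 34885 probes carry 1 symbol, 18 carry several and 10378 carry none. Each probe was fitted alone, in 1 model of 4 groups (residual df 13, prior df 3.23), with Benjamini-Hochberg adjustment over all probes and calls under 0.05. The labels give no batch, and the model has no covariate. Chain differences had exact two-sided permutation tests, adjusted over 6. Steps were tested on simulated data.

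Every probe of the 5 genes is named, and of the pathway list 9 genes whatever they did plus the 3 highest and 3 lowest called genes of each comparison. For pathway and marker genes the probe with the highest mean stands. Of the listed genes, Il12b, Il1rl1, Irak4, Nfkb1 and Runx3 are among those not tested. The members and lists were chosen with earlier results of these data known. Alternatives were the authors' values, uncorrected background, a stricter or absent filter, cyclic loess or median scaling, 1 probe per gene, eBayes with trend and robust, array weights, only the 2 groups compared, a background level at 2 or 4 SD and leaving out samples.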

Additional observations from a re-analysis of the deposited data

Results flagged for a closer look

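Of 36 tests for a sample that stands far from the others of its group, in groups of 4 or 5, 3 were positive, where chance gives about 1 in 20. LSEC-primed sample 14 was the lowest of its group on the Il18rap probe ILMN_1221620, at a log2 level of 5.89, against 6.00 to 6.01 in the other LSEC-primed samples, and none of the 4 was above background. The same sample was the highest of its group on the Il12rb1 probe ILMN_2799452, at 6.42, against 6.12 to 6.16, and was the only LSEC-primed sample above background there. Naive sample 2 was the lowest of its group on the Stat4 probe ILMN_2614970, at 7.80, against 9.10 to 9.51 in the other naive samples.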

How the results depend on the processing

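Memory samples 3 and 5 were dim and the 3 memory arrays were the least alike. Under median scaling, memory over effector reversed for Stat4 ILMN_1236059 (-1.58) and Il18r1 ILMN_1255514 (-0.26), and so did Il27ra (-0.24), Tyk2 (-0.63), Myd88 (-1.21) and Nfkbiz (-0.19), with Tyk2 also in memory over naive (-0.26) and LSEC-primed over memory (0.74). The count of the 12 probes called in LSEC-primed over naive cells, 2 here, became 1 with the authors' values, 1 without background correction, 0 under median scaling, 4 of 10 with the stricter filter, 5 with array weights and 5 with only the 2 groups. Memory over naive gave 1 under median scaling, and with 1 probe per gene effector over naive gave 2 of 5 and memory over effector 3 of 5. Leaving out 1 sample gave 1 to 2 calls in LSEC-primed over naive and 3 to 5 in effector over naive cells.

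The Il18r1 minus Il18rap shift of memory over naive cells became 0.072 with the authors' values, 0.13 without background correction and 0.63 with cyclic loess, and that of effector over naive cells 0.16 under median scaling. Leaving out 1 sample, it ranged from -1.59 to -1.07 in LSEC-primed, -0.18 to 0.18 in effector and -0.81 to 0.096 in memory over naive cells. The Il12rb2 minus Il12rb1 shift ranged from 0.78 to 1.27, 2.46 to 2.63 and -0.086 to 0.26 in the same comparisons. With fewer samples the exact test adjusts to 0.0571 or 0.0714 at best where a call was lost.

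Over all probes, median scaling gave 1327 calls against 3924 in LSEC-primed over naive, 2115 against 4417 in LSEC-primed over effector and 4650 against 7357 in effector over naive. The share of higher calls under it was 28.6% against 50.8% in LSEC-primed over effector, 96.6% against 58.1% in LSEC-primed over memory, 68.8% against 49.9% in effector over naive, 3.64% against 44.7% in memory over naive and 4.67% against 46.3% in memory over effector. LSEC-primed over memory gave 3870 calls, against 1638 with cyclic loess, 2465 with array weights, 1398 with only the 2 groups and 1989 without memory samples 3 and 5. Memory over naive gave 3673, against 2054, 2431, 2427 and 1890, and the share of higher calls in the last was 56.7% against 44.7%. The causes were not tested. No paired analysis was run, because the labels give no pairing of samples between groups. The sample numbers run once through the series and cannot show whether samples were paired.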

Other observations

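Within the LSEC-primed group the receptor chains did not keep the same order of samples. Samples 14 and 15 had the highest Il12rb2 log2 levels, 8.24 and 7.65, against 6.47 and 6.59 in samples 4 and 7, and the lowest Il18r1 levels, 7.01 and 7.87, against 8.18 and 8.67. Stat4 ILMN_1236059 was also higher in samples 14 and 15, at 11.22 and 11.32, than in samples 4 and 7, at 10.64 and 10.28. These are values of 4 samples with no label that separates them this way, and no test was run. Effector sample 17 had the lowest Il18r1 level of its group, 8.33, and the highest Il12rb2 level, 9.72.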
